A study of Mus musculus with 42 samples.

Results

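The 39 Hox genes of the mouse were followed in sorted lung mesenchyme, the connective tissue cells that make and hold the matrix of the lung. Members were taken as every symbol made of Hoxa, Hoxb, Hoxc or Hoxd and a paralog number, and all 39 were present among the 26323 named genes of the CD1 RNA table and among the 35972 of the C57BL/6 table. Accessible regions named for a Hox gene numbered 83 of 156984 over the 6 deposited ATAC lists. Messenger RNA was read out by RNA-seq and open DNA by ATAC-seq, in which a transposase tags accessible sites, with 21 libraries of each. In CD1 mice the cells carried a GFP reporter driven by Col1a1 and were sorted as GFP-positive and negative for CD45, EpCAM and CD31. The CD1 groups were cells grown for 5 days on collagen-coated silicone gels of 0.2 kPa, the same culture on gels of 32 kPa, and sham cells collected straight from the lung, with 3 libraries per assay in each. In C57BL/6 mice GFP marked the descendants of Col1a2-expressing cells, which were sorted without CD45 and EpCAM but with no CD31 gate. The C57BL/6 groups were lungs at day 14 after bleomycin, a drug that causes lung fibrosis, lungs at day 56, and sham lungs, with 4 libraries per assay in each. All groups of a strain shared its reporter, so lung cells that the Col1a1 or Col1a2 reporter did not mark were not the target of the sort. No age of the mice is given. Replicate numbers are not stated to mark separate animals or cultures, so each p-value measures how far these libraries spread, and that spread may be technical.

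Hox genes encode homeodomain transcription factors that tell cells of the embryo where they lie along the body axis. They stand in clusters, and genes nearer the low-numbered end are used earlier and further forward in the body than genes at the high-numbered end. Fibroblasts of adult organs keep much of the Hox pattern of the place they came from, which is called positional memory. Genes of the Hoxa and Hoxb clusters are known from the mesenchyme of the developing lung, where mouse Hoxa5 is needed for normal airway and alveolar growth. Below, paralogs 1 to 3 are called anterior (8 genes), 4 to 8 central (15) and 9 to 13 posterior (16). In GRCm38 coordinates the Hoxa cluster spans chr6:52155367-52260880 with 11 genes, Hoxb chr11:96194316-96368253 with 10, Hoxc chr15:102921131-103036852 with 9 and Hoxd chr2:74668225-74765142 with 9.

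The depth of an RNA library was 34313376 to 67721210 recovered reads in CD1 mice, and 14288605 to 51288435 in C57BL/6 mice. Levels are given as normalised reads, which are read counts scaled by 1 factor per library, as CPM (reads scaled to the total of the library), or, between genes, as CPM per kb of exon. Col1a1, Col1a2 and the other fibroblast markers summed to 51300 to 61800 CPM in CD1 sham libraries, where the endothelial list summed to 266 to 286 CPM and the epithelial list to 131 to 361 CPM. CD1 sham replicate 2 stood apart, with 117 CPM of the mesothelial list against 22.1 and 23.7 in the other sham libraries, and 562 CPM of the smooth muscle list against 2950 and 3420. Among C57BL/6 libraries, sham replicates 1 and 2 (16913 and 17561 genes with a read) and day 56 replicates 2 and 3 (16679 and 16563) detected fewer genes than the other 8, which detected 19384 to 21381. Xist exceeded Ddx3y in all 3 libraries of each CD1 group, in 2 of 4 at day 14, in 4 of 4 at day 56 and in 1 of 4 C57BL/6 sham libraries, so the sex of the mice partly moved with day 56. The part of these differences in the results was not tested. Hox values that move with CD1 sham replicate 2 or C57BL/6 sham replicate 1 are given with and without that library.

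Fresh lung mesenchyme used the front and middle of 2 clusters. In CD1 sham cells 13 of the 39 genes averaged at least 1 CPM, among them Hoxa2 to Hoxa5, Hoxa7, Hoxb2 to Hoxb7 and Hoxc4, and in C57BL/6 sham cells 12 did, the same genes without Hoxc4. No Hoxd gene reached 1 CPM in either strain. No posterior gene, with a paralog number of 9 or more, did so either. In CD1 sham cells, 9 genes had no read in any library, which allows up to 0.0162 CPM, and 17 had reads below 1 CPM. In C57BL/6 sham cells, 16 had no read, which allows up to 0.0168 CPM, and 11 had reads below 1 CPM. Such limits and the counting intervals given later cover counting error only.

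The 4 Hox clusters summed to 152 ± 23.3 CPM in CD1 sham cells (SD, n = 3) and to 128 ± 26.3 CPM in C57BL/6 sham cells (SD, n = 4). Hoxb gave 78.2 ± 7.98 CPM and Hoxa 70.1 ± 12.1 CPM of the CD1 total, whereas Hoxc gave 3.06 ± 2.86 CPM and Hoxd 0.667 CPM. In C57BL/6 sham cells Hoxb gave 67.2 ± 14.1 CPM and Hoxa 60.0 ± 13.2 CPM, and no read of any Hoxd gene was found.

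**Figure D1:**
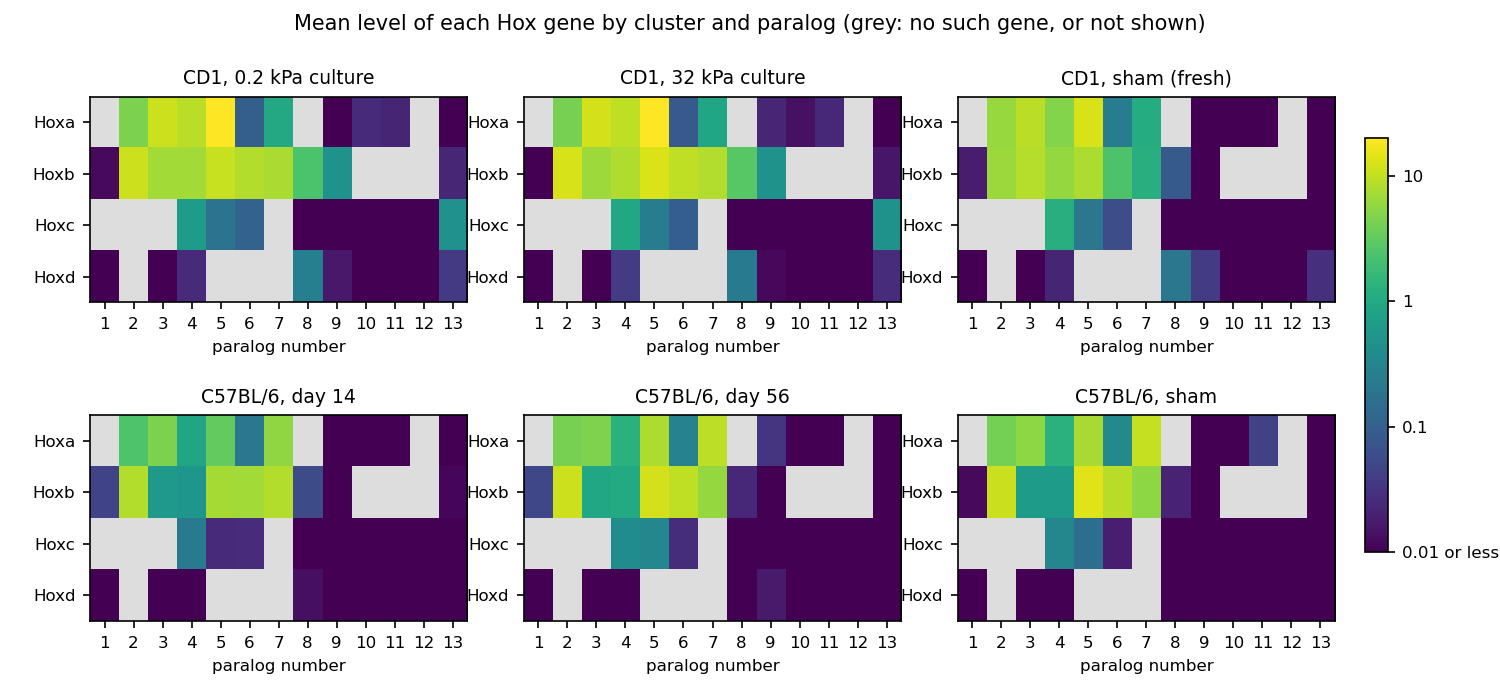
Mean level of each Hox gene in CPM per kb of exon (colour scale), with clusters down the page and paralog numbers across, for 0.2 kPa, 32 kPa and CD1 sham cells (n = 3 each) and for day 14, day 56 and C57BL/6 sham cells (n = 4 each). Signal lies in Hoxa and Hoxb up to paralog 7 in the sham panels, with Hoxa5 at 12.5 CPM per kb in CD1 sham and Hoxb5 at 13.6 CPM per kb in C57BL/6 sham, and the culture panels add Hoxb8, Hoxb9 and Hoxc13.

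Per kb of exon, the gene of highest level in CD1 sham cells was Hoxa5, which patterns the mouse lung and neck, at a mean of 12.5 CPM per kb (10.6 to 16.1 over 3 libraries). Hoxa3, Hoxb3, Hoxb5, Hoxb2, Hoxa2 and Hoxb4 followed at 9.01, 8.69, 7.79, 6.38, 6.16 and 6.05 CPM per kb, and Hoxa4 at 4.81. Hoxb6 averaged 2.38 CPM per kb, and Hoxc4, Hoxb7 and Hoxa7 averaged 1.21, 1.19 and 1.10. Along this order the library values of neighbours did not overlap in the steps after Hoxa5, Hoxb4 and Hoxa4, and overlapped in the other steps down to Hoxa7. Part of the exon sequence of Hoxa3 overlaps the antisense genes Hoxaas2 and Hoxaas3, and part of Hoxb2 overlaps Hoxb3os. Whether the counting used the strand is not stated, so the levels and places in the order of both genes are uncertain.

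In C57BL/6 sham cells the order was different. Hoxb5, which acts in branching of the lung, stood first at 13.6 CPM per kb (9.53 to 20.9 over 4 libraries), before Hoxb2 at 10.8, Hoxa7 at 10.1, Hoxb6 at 8.95 and Hoxa5 at 7.44 CPM per kb. Hoxa3, Hoxb7 and Hoxa2 followed at 5.53, 5.44 and 4.09 CPM per kb, all overlapping their neighbours above. A step without overlap separated Hoxa2 from Hoxa4, Hoxb3 and Hoxb4, which averaged 1.3, 0.643 and 0.640 CPM per kb. Side by side, Hoxb3 had 32.3 CPM in CD1 sham and 2.39 CPM in C57BL/6 sham, Hoxb4 15.5 and 1.64 CPM, and Hoxa7 2.14 and 19.7 CPM. The strains also differ in reporter and gate and their tables were normalised separately, so these levels were not tested against each other.

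In culture on either gel these genes stayed at 1 CPM or more, and 3 genes of higher paralog number joined them. Each stiffness had 16 genes at 1 CPM or more, the 13 of CD1 sham cells and Hoxb8, Hoxb9 and Hoxc13. Hox reads summed to 216 ± 20 CPM on 0.2 kPa, 230 ± 46.3 CPM on 32 kPa and 152 ± 23.3 CPM in sham cells. The central genes summed to 124 ± 11.6 CPM on 0.2 kPa, 134 ± 29.0 on 32 kPa and 72.5 ± 13.4 in sham cells. The anterior genes summed to 89.7 CPM on 0.2 kPa, 93.0 on 32 kPa and 79.3 in sham cells, and the posterior genes to 2.76 ± 0.334, 2.82 ± 1.35 and, in sham cells, 0.219 ± 0.117 CPM. Anterior genes thus held 41.3 to 41.8% of Hox reads on 0.2 kPa and 39.6 to 42.3% on 32 kPa, against 50.1 to 55.8% in sham cells, with no overlap between culture and sham. In bulk samples such as these, fewer cells of a type and less RNA per cell cannot be told apart.

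By limma on log2(normalised reads + 1) with Benjamini-Hochberg adjustment over all 18480 genes tested, 9 Hox genes rose and 2 fell on 0.2 kPa against sham, of 27 tested. Over all genes 31.9% were called higher and 39.2% lower, so the count of Hox genes that rose lies near the background and the count that fell lies below it. On 32 kPa, 10 rose and 3 fell of the 27, where 32.4% of all genes were called higher and 41% lower. The 2 culture comparisons share their 3 sham libraries. The other 12 genes had too few reads to test. Of the 27, 5 genes averaged under 1 normalised read in sham cells and passed the minimum, a mean of 1 over all CD1 libraries, only through culture, namely Hoxa9, Hoxa10, Hoxa11, Hoxb9 and Hoxc13. The counts and medians include these 5 genes and are given as a description. The median log2 difference over the 27 tested was 0.32 on 0.2 kPa and 0.56 on 32 kPa, beside -0.22 and -0.26 over all genes tested. A log2 difference of value + 1 understates the change of low genes.

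**Figure D2:**
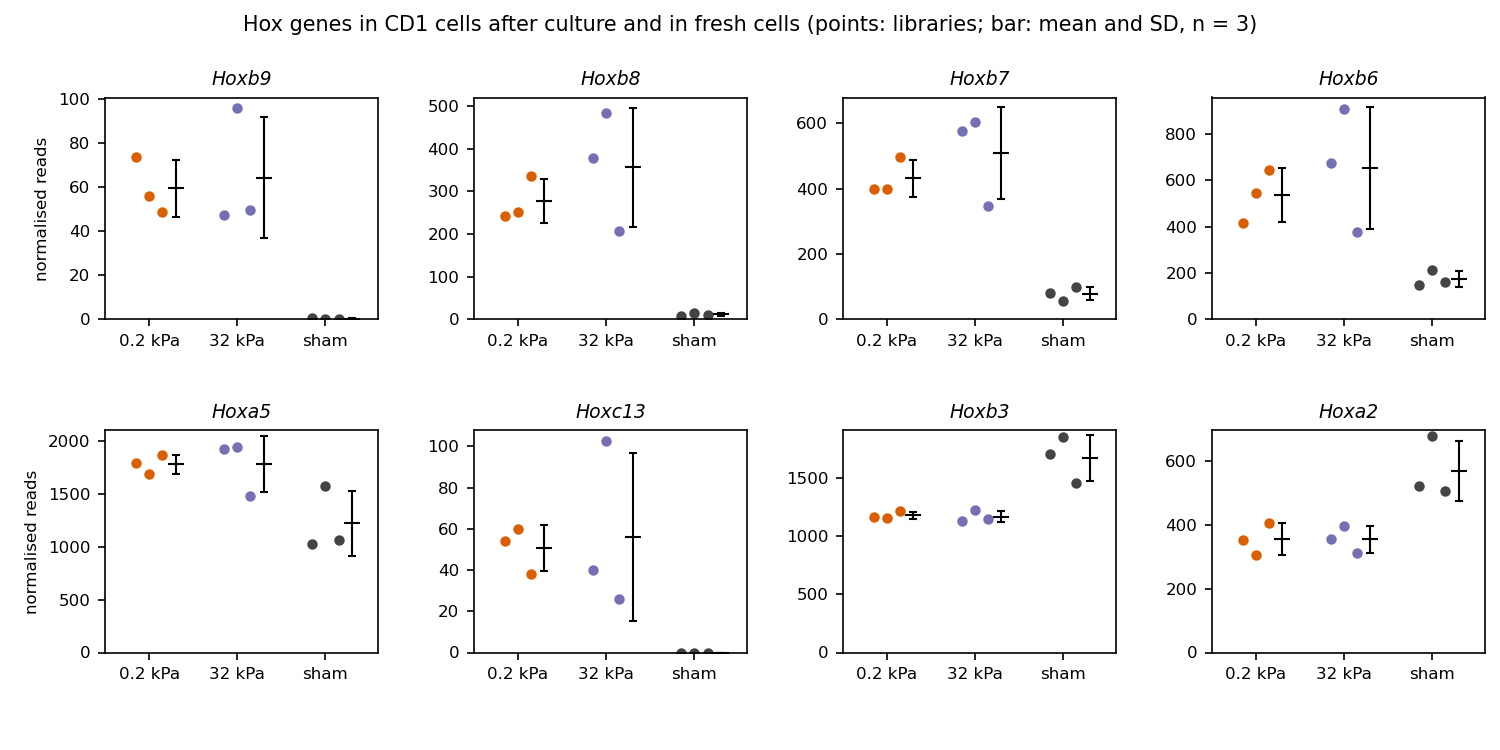
Normalised reads per library of Hoxb9, Hoxb8, Hoxb7, Hoxb6, Hoxa5, Hoxc13, Hoxb3 and Hoxa2 on 0.2 kPa, on 32 kPa and in CD1 sham cells (points are libraries, bars the mean ± SD, n = 3 each). Hoxb9 lies at 47.1 to 95.7 normalised reads in culture and at or below 0.904 in sham cells, and Hoxb3 and Hoxa2 lie lower in all 6 culture libraries than in sham cells.

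Hoxb8, a trunk gene better known from myeloid progenitors and spinal cord, rose most among the genes with reads in every sham library. It had 243, 251 and 337 normalised reads in replicates 1, 2 and 3 on 0.2 kPa and 378, 483 and 207 on 32 kPa, against 9.04, 15.4 and 11.1 in sham cells. Every culture library lay above every sham library. Its log2 difference was 4.45 ± 0.34 (SE, adjusted p = 6.12e-07 by limma) on 0.2 kPa and 4.74 ± 0.34 (adjusted p = 3.43e-07) on 32 kPa. The recovered reads behind it were 804 on 0.2 kPa, 1056 on 32 kPa and 43 in sham cells. Hoxb8 is also a classic microRNA target in the mouse, since miR-196a pairs along nearly its whole length with the Hoxb8 transcript. Mir196a-1, a gene for that microRNA, lies in the same cluster, with the mature sequence at chr11:96265187-96265208. The microRNA and its site are printed because Hoxb8 rose in culture. The mature microRNA (RefSeq, GRCm38.p6) has its seed, bases 2 to 8, in capitals, and the site in the 3' UTR of Hoxb8 at chr11:96284888-96284909 has in capitals the bases that face the seed. Of its 22 bases, 21 pair, and all 22 do when G:U pairs count.
mmu-miR-196a-5p: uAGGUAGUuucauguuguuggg
Hoxb8 site: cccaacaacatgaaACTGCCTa
Reads counted to the Mir196a-1 gene, which in RNA-seq come from longer transcripts and not from the mature microRNA, numbered 8 on 0.2 kPa, 17 on 32 kPa and 0 in sham cells. Scaled for depth, that is 3.73-fold a floor of 3 reads over the sham group on 0.2 kPa and 7.02-fold on 32 kPa. Such ratios to the floor take the reads of the higher group as exact, so they are not lower limits of the change. The gene passed the minimum only through the culture libraries, so no test is given for it.

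Hoxb9, the next gene of the cluster, was nearly silent in the fresh cells. It had 73.6, 56.1 and 48.5 normalised reads on 0.2 kPa and 47.1, 95.7 and 49.4 on 32 kPa, against 0.904, 0 and 0 in sham cells. With 176 recovered reads on 0.2 kPa and 1 in sham cells the ratio was 246 (95% counting interval 43.6 to 9780), and with 202 reads on 32 kPa it was 250 (44.4 to 9939). The groups did not overlap. Hoxc13, known for its part in hair and nail growth, was the only posterior Hoxc gene above 1 CPM. It had 54.0, 59.9 and 38.1 normalised reads on 0.2 kPa and 40.0, 103 and 26.1 on 32 kPa, and none in the 3 sham libraries. Its 151 reads on 0.2 kPa and 170 on 32 kPa were, scaled for depth, 70.4-fold and 70.2-fold the floor of 3 reads over the sham group. Hoxb9 and Hoxc13 passed the minimum only through the culture libraries, so no test is given for them. Its neighbours Hoxc10, Hoxc11 and Hoxc12 had no read in any of the 21 RNA libraries.

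Hoxb7 and Hoxb6, central genes already on in fresh cells, rose as well. Hoxb7 had 399, 400 and 498 normalised reads on 0.2 kPa and 575, 604 and 348 on 32 kPa, against 79.5, 57.7 and 98.2 in sham cells (log2 difference 2.47 ± 0.26 SE, adjusted p = 8.19e-06, on 0.2 kPa and 2.67 ± 0.26, adjusted p = 4.05e-06, on 32 kPa, by limma). Hoxb6 had 416, 545 and 646 normalised reads on 0.2 kPa and 674, 905 and 378 on 32 kPa, against 150, 212 and 162 in sham cells. Neither gene's culture libraries overlapped its sham libraries. The log2 difference of Hoxb6 was 1.60 ± 0.30 (SE, adjusted p = 0.000619 by limma) on 0.2 kPa and 1.82 ± 0.30 (adjusted p = 0.000231) on 32 kPa.

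Within the Hoxb cluster the differences stepped up with the paralog number from Hoxb3 to Hoxb9. From Hoxb3 to Hoxb9 the log2 differences on 0.2 kPa were -0.50, 0.02, 0.22, 1.60, 2.47, 4.45 and 5.59, and on 32 kPa -0.51, 0.26, 0.61, 1.82, 2.67, 4.74 and 5.64. Hoxb2 stood outside this order with 0.63 on 0.2 kPa (adjusted p = 0.0445 by limma) and 0.84 on 32 kPa (adjusted p = 0.0113). Its call on 0.2 kPa was lost in 6 of 16 alternative settings, among them those without sham replicate 1 or 3 and without 0.2 kPa replicate 2 or 3. Its overlap with Hoxb3os applies here too. On 32 kPa the call was lost without sham replicate 1 (adjusted p = 0.0512 by limma). The order is given as a description of these 8 genes, and neighbours were not tested against each other. Hoxb9 passed the minimum only through culture and had 1 read in sham cells, so its value depends on the 1 added before the log. Hoxb1 and Hoxb13 are left out of the order. They had 3 and 4 reads on 0.2 kPa, 0 and 4 on 32 kPa, and 7 and 0 in sham cells. The Hoxa cluster showed no such order, since Hoxa7, its most posterior gene above 1 CPM, was not called at either stiffness.

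**Figure D3:**
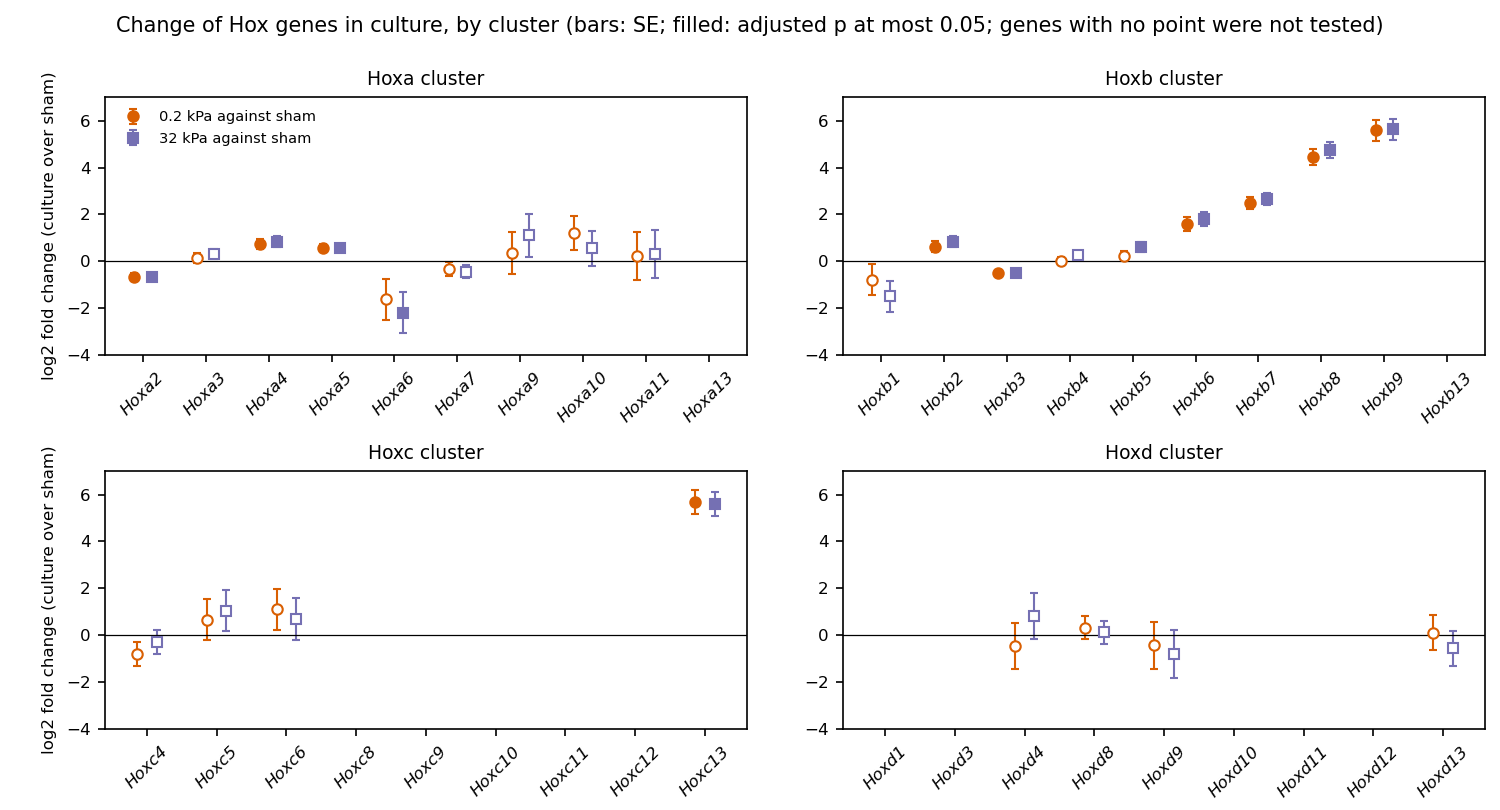
Log2 difference (± SE) in normalised reads + 1 of each tested Hox gene in culture against CD1 sham, by cluster and paralog number, with circles for 0.2 kPa, squares for 32 kPa and filled symbols for an adjusted p of at most 0.05 by limma (n = 3 per group). In Hoxb the values climb from -0.50 at Hoxb3 to 5.59 at Hoxb9 on 0.2 kPa, while the Hoxa genes from Hoxa2 to Hoxa5 lie between -0.67 and 0.84 at both stiffnesses. Hoxa9, Hoxa10, Hoxa11, Hoxb9 and Hoxc13 passed the minimum only through culture, so their symbols are a description.

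Hoxa4 and Hoxa5, central Hoxa genes, rose by less than 1 on the log2 scale. Hoxa4 had 559, 639 and 714 normalised reads on 0.2 kPa and 739, 880 and 483 on 32 kPa, against 342, 460 and 347 in sham cells. Culture and sham libraries did not overlap. It had log2 differences of 0.74 (adjusted p = 0.0113 by limma) on 0.2 kPa and 0.84 (adjusted p = 0.00533) on 32 kPa.

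Hoxa5 had 1790, 1681 and 1863 normalised reads on 0.2 kPa and 1918, 1941 and 1478 on 32 kPa, against 1021, 1572 and 1066 in sham cells. Sham replicate 2, at 1572, overlapped the 32 kPa libraries but not the 0.2 kPa ones. Its log2 difference was 0.57 ± 0.17 (SE, adjusted p = 0.0115 by limma) on 0.2 kPa and 0.56 (adjusted p = 0.0119) on 32 kPa, and the call was lost at both stiffnesses without sham replicate 1 and without sham replicate 3. Hoxb5 was called on 32 kPa, at a log2 difference of 0.61 ± 0.22 (adjusted p = 0.0272 by limma), with overlapping groups. That call was lost in 5 of 16 alternative settings, without 32 kPa replicate 1 or 2 or sham replicate 1 or 3 among them. On 0.2 kPa Hoxb5 had 0.22 (adjusted p = 0.40 by limma).

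Only Hoxb3 and Hoxa2, both anterior and both well above 1 CPM, fell at both stiffnesses. Hoxb3 had 1171, 1161 and 1218 normalised reads on 0.2 kPa and 1133, 1224 and 1149 on 32 kPa, against 1708, 1857 and 1464 in sham cells (log2 difference -0.50 ± 0.11 SE, adjusted p = 0.00208, on 0.2 kPa and -0.51, adjusted p = 0.00154, on 32 kPa, by limma). Hoxa2, which specifies neural crest of the second arch in the mouse, had 353, 305 and 407 normalised reads on 0.2 kPa and 354, 396 and 310 on 32 kPa, against 520, 676 and 506 in sham cells. All 6 culture libraries lay below all 3 sham libraries for both genes. Hoxa2 had a log2 difference of -0.67 ± 0.18 (SE, adjusted p = 0.00566 by limma) on 0.2 kPa and -0.67 (adjusted p = 0.00524) on 32 kPa. The third gene called lower on 32 kPa, Hoxa6, lay under 1 CPM, had overlapping groups (4.28, 0.986 and 20.6 normalised reads against 26.2, 17.7 and 41.9 in sham cells), and lost its call in 10 of 16 alternative settings, without sham replicate 2 among them (adjusted p = 0.0534 by limma).

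Among expressed genes that did not pass the test at either stiffness, Hoxa3 had 1118, 1194 and 1592 normalised reads on 0.2 kPa and 1611, 1870 and 1053 on 32 kPa, against 1199, 1376 and 988 in sham cells (adjusted p = 0.617 and 0.207 by limma). Hoxb4 had log2 differences of 0.02 on 0.2 kPa and 0.26 on 32 kPa (adjusted p = 0.92 and 0.186 by limma), and Hoxa7 had -0.33 and -0.44 (adjusted p = 0.312 and 0.177). Without 32 kPa replicate 3, Hoxa3 stood at 0.56 (adjusted p = 0.0157 by limma) and Hoxb4 at 0.46 (adjusted p = 0.00393) on 32 kPa, both past the threshold. Hoxc4 and Hoxc5 moved with the sham library that stood apart. Hoxc5 had 28.5, 19.0 and 19.6 normalised reads on 0.2 kPa and 30.0, 50.3 and 15.8 on 32 kPa, against 5.42, 75.4 and 5.13 in sham cells, where replicate 2 is the high one. With all libraries its log2 difference was 0.67 (adjusted p = 0.502 by limma) on 0.2 kPa and 1.05 (adjusted p = 0.29) on 32 kPa, and without sham replicate 2 it was 1.87 (adjusted p = 0.00924) and 2.25 (adjusted p = 0.00333). Hoxc4 had 243 normalised reads in that library, against 77.7 and 53.8 in the other sham libraries. Its log2 difference was -0.80 on 0.2 kPa (adjusted p = 0.197 by limma) and -0.29 on 32 kPa (adjusted p = 0.63) with all libraries, and -0.18 (adjusted p = 0.724) and 0.33 (adjusted p = 0.494) without that library, which turns the sign on 32 kPa. Of the Hoxd genes only Hoxd8 had reads in every CD1 library, with 22.6, 31.4 and 24.3 normalised reads on 0.2 kPa, 28.5, 11.8 and 33.0 on 32 kPa, and 18.1, 36.9 and 12.8 in sham cells, which overlap.

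The mix of cells or states also moved with culture. The fibroblast list summed to 4530 to 5310 CPM on 0.2 kPa and 4350 to 4680 on 32 kPa, against 51300 to 61800 in sham cells, with all 6 markers lower on 0.2 kPa. The proliferation list summed to 808 to 918 CPM on 0.2 kPa and 751 to 862 on 32 kPa, against 9.10 to 15.7 in sham cells, with 5 of 5 markers higher on 0.2 kPa. The endothelial, leukocyte, epithelial, mesothelial and pericyte lists were lower in culture, and the smooth muscle list was higher. The endothelial list summed to 12.3 to 13.7 CPM over the 6 culture libraries and 266 to 286 in sham cells, the leukocyte list to 12.8 to 23.4 and, in sham cells, 104 to 201, and the epithelial list to 0.670 to 1.65 and, in sham cells, 131 to 361. The mesothelial list summed to 4.84 to 7.80 CPM in culture, with Muc16 at 0, and to 22.1 to 117 in sham cells. Pericyte markers summed to 124 to 170 CPM in culture and to 561 to 894 in sham cells. The smooth muscle list summed to 3960 to 4080 CPM on 0.2 kPa and 4310 to 4980 on 32 kPa, against 562 to 3420 in sham cells. Of its 6 markers 2 rose and 3 fell at each stiffness, with Acta2, also a gene of activated fibroblasts, at 1.38 and Myh11 at -6.96 on 0.2 kPa (log2). Their part in the Hox differences was not tested.

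No Hox gene passed the test between the stiffnesses. With 32 kPa against 0.2 kPa, limma called 0 of 27 Hox genes and none of all genes (0% higher and 0% lower), edgeR and DESeq2 called 0 Hox genes, and 0 had an unadjusted p under 0.05. The lowest adjusted p among Hox genes was 0.788. The 95% intervals of the log2 difference show what size could have been missed. They were -0.46 to 1.04 around 0.29 for Hoxb8, -0.38 to 0.78 around 0.20 for Hoxb7, -0.94 to 1.04 around 0.05 for Hoxb9 and -1.19 to 1.07 around -0.06 for Hoxc13. For the abundant genes they were narrower, at -0.26 to 0.23 around -0.02 for Hoxb3 and -0.39 to 0.37 around -0.01 for Hoxa5. On 32 kPa, replicate 3 lay below the other replicates for Hoxb4 to Hoxb8, as in Hoxb8 with 207 normalised reads against 378 and 483. Without that library limma called 315 of all genes higher and 509 lower, so the absence of calls over all genes depends on it. In that fit 5 Hox genes had an unadjusted p under 0.05 and 0 were called. With all libraries DESeq2 called 4 of all genes higher and 39 lower.

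Among genes that work with or control Hox genes, calls in culture went in both directions, as they did over all genes. Over all genes 31.9% were called higher and 39.2% lower on 0.2 kPa, and 32.4% and 41% on 32 kPa. Of 10 TALE homeodomain cofactors, which bind DNA beside Hox proteins, 2 rose and 7 fell at each stiffness, with, on 0.2 kPa, Pbxip1 at -2.15, Pknox2 at -1.87 and Pbx4 at 1.41 (log2). Pknox2 had 1327 recovered reads on 0.2 kPa and 5968 in sham cells. Pbx2 was among those that fell, and its call was lost without sham replicate 2 on 0.2 kPa (adjusted p = 0.0709 by limma) and on 32 kPa (adjusted p = 0.0847). Of 23 Polycomb genes, whose complexes keep silent Hox genes off, 10 rose and 9 fell on 0.2 kPa and 11 rose and 10 fell on 32 kPa. Ezh2, the main H3K27 methyltransferase of dividing cells, averaged 4325 ± 554 normalised reads on 0.2 kPa and 707.7 ± 37.7 in sham cells (log2 2.6), whereas its relative Ezh1 averaged 678.7 ± 31.4 and 4074 ± 215 (log2 -2.58). Cbx7, a reader of H3K27 methylation, fell by 3.02 on the log2 scale, and Phc2 rose by 2.35. Of 11 Trithorax and demethylase genes, which keep Hox genes on, 4 rose and 4 fell at each stiffness, with Kdm6b, an H3K27 demethylase, at -2.08 and Kdm6a at -1.46 on 0.2 kPa, and Dpy30 and Ash2l, parts of the H3K4 methyltransferase, at 1.57 and 1.39.

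Of 7 tested upstream regulators of Hox genes, 1 rose and 5 fell at each stiffness. On 0.2 kPa the largest differences were in Cyp26b1, which breaks down retinoic acid, at -3.24 (log2), and in the retinoic acid receptors Rarb at -2.6 and Rarg at -1.97. Of 45 other transcription factors of positional identity in mesenchyme, 9 rose and 14 fell on 0.2 kPa and 12 rose and 15 fell on 32 kPa. Dlx2, a jaw and forebrain gene in the embryo, had 2919 recovered reads on 0.2 kPa and 14 in sham cells (log2 8.07, adjusted p = 1.13e-06 by limma), and Msx2 and Lhx9 had log2 differences of 4.25 and 4.12. Meox2, a gene of somites and limb mesenchyme, stood at -4.74. Of 21 noncoding genes of the Hox clusters, 5 were tested. Of these 2 rose and 1 fell on 0.2 kPa, and 3 rose and 2 fell on 32 kPa. The 5 include Mir196a-1 and Gm53, which passed the minimum only through culture, so these counts are a description. Gm53 had 22 reads on 0.2 kPa, 30 on 32 kPa and 0 in sham cells, which is 10.3-fold and 12.4-fold the floor, with the culture reads taken as exact. Each list was set against the same background, 31.9% of genes higher and 39.2% lower on 0.2 kPa.

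Listed chromatin regions at the Hox clusters lost accessibility in culture, both at genes whose RNA rose and at genes whose RNA fell. The authors' deposited list for 0.2 kPa against sham held 35 regions nearest to 21 Hox genes, all 35 less accessible on 0.2 kPa, with a median log2 fold of -2.34. The deposited list for 32 kPa held 36 regions nearest to 22 Hox genes, 35 less accessible and 1 more accessible, with a median of -2.04. Over each whole list 87.9% of regions lost accessibility on 0.2 kPa and 70.4% on 32 kPa, and the rest gained it (12.1% and 29.6%), so loss was also the rule outside the Hox clusters. Both lists are tied to the same sham libraries and hold only regions past the authors' thresholds, so a region that is missing is not shown to be unchanged. The lowest fold in size was 1.0 on 0.2 kPa and 0.31 on 32 kPa, where 10.5% of the list lay below 1. Counts, medians and shares of the 2 lists thus rest on unlike thresholds. Of the 35 regions on 0.2 kPa, 18 lay by Hoxb genes, 12 by Hoxa, 3 by Hoxc and 2 by Hoxd, and 18 lay within 1005 bases of a start site. Of the Hoxb regions, 4 lay outside the cluster, 34.3 to 48.1 kb from Hoxb1. These 2 lists carry no gene names, so the nearest curated RefSeq start site was used. That rule gave the authors' name for 8 of 8 and 4 of 4 Hox regions of the lists that have names.

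All fold values of regions are the authors', from their deposited table, as log2 of culture over sham. At Hoxb9, whose RNA rose, a region at the start site had a fold of -1.03 on 0.2 kPa (FDR 0.0053) and -0.73 on 32 kPa (FDR 0.0311). RNA and accessibility thus moved in opposite directions there.

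In the deposited tables, Hoxb8 had a region at chr11:96278869-96279059 with folds of -1.83 on 0.2 kPa and -1.57 on 32 kPa. Hoxb7, whose RNA also rose, had one 60 bases from its start at chr11:96286522-96286651 with -2.57 and -2.01. Hoxb6 had -1.87 and -1.46. Losses at other central genes were steeper, with -3.40 and -2.93 at Hoxa4 (chr6:52191735-52192229) and -2.75 and -2.41 at Hoxa5 (chr6:52204186-52204762) in the authors' deposited table. Hoxa2, whose RNA fell, had -1.81 and -1.14 there, and Hoxd8 had -2.49 and -1.82. A region nearest to Hotairm1, a noncoding gene of the Hoxa cluster, and not counted above, had -3.65 and -3.82 at chr6:52160880-52161330. The other listed region nearest to Hotairm1 had -2.62 and -1.97. Thus loss was listed at genes with RNA that rose, that fell and that was hardly present, such as Hoxa13 with 2 regions and 0 to 2 reads per group.

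**Figure D4:**
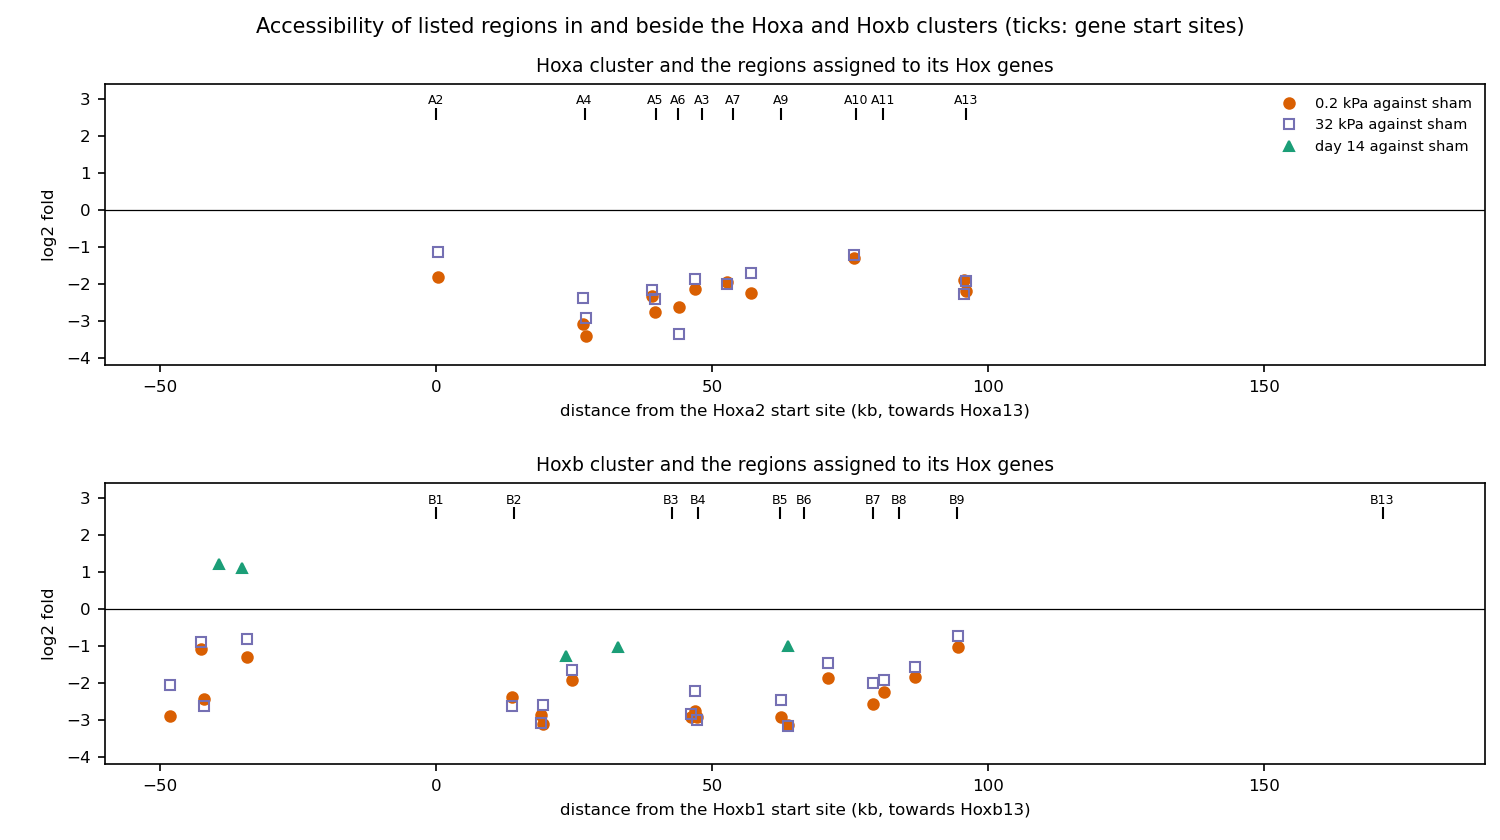
The authors' log2 fold of each listed region by its distance (kb) from the start site of Hoxa2 or Hoxb1, with circles for 0.2 kPa against sham, open squares for 32 kPa against sham and triangles for day 14 against sham. All culture regions shown in the Hoxa and Hoxb clusters lie below 0, down to -3.40 at Hoxa4 on 0.2 kPa, and the day 14 region by Hoxb5 lies at -1.01.

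A pair of regions was listed both in culture and after injury, and both are printed for that reason (GRCm38, plus strand). The region by Hoxb5 at chr11:96301831-96302168 had folds of -3.14 on 0.2 kPa and -3.16 on 32 kPa in the authors' deposited table, and shared 335 bases with the day 14 region chr11:96301834-96302207, which had -1.01 against sham (FDR 1.35e-10). Its central 300 bases held no match on either strand to the AP-1 motif TGANTCA, the TEAD motif GGAATG or the paired Hox and Pbx motif TGATNNAT, which were in 38.8%, 23.7% and 14% of 25518 windows of that length in the day 14 list.
Hoxb5 region, chr11:96301852-96302151: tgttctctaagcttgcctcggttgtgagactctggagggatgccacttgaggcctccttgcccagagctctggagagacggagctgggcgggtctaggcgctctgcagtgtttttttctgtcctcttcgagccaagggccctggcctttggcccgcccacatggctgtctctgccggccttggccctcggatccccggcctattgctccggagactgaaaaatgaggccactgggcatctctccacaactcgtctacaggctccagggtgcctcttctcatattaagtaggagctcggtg
The other lies 81.3 kb from the Hoxc13 start site, outside the cluster. On 32 kPa chr15:102839762-102839904 was the single Hox-named region that gained accessibility, with a fold of 2.40 (FDR 2.34e-08) in the authors' deposited table, and no region there was in the 0.2 kPa list. At day 14 chr15:102839719-102839983 gained as well, with 2.52 (FDR 4.72e-08). Capitals mark the 143 bases shared by both lists.
Hoxc13 distal region: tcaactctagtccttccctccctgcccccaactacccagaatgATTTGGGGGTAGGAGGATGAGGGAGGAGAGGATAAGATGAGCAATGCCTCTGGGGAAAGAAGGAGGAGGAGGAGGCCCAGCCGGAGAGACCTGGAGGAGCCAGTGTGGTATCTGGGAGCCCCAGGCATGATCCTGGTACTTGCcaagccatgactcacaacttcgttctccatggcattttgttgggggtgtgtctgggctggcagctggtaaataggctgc
An AP-1 match, on lower-case letters, begins at base 194, as in 37.5% of windows of 265 bases in the day 14 list. TEAD and Hox and Pbx motifs, present in 21.8% and 12.6% of windows, had none. A match describes letters and not binding. Hoxc13 RNA, 151 and 170 reads in the 2 cultures, was found after injury in day 14 replicate 1 alone, at 2.69 normalised reads.

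After bleomycin the same 12 genes averaged 1 CPM or more at day 14, at day 56 and in sham cells, among them Hoxa2 to Hoxa5, Hoxa7 and Hoxb2 to Hoxb7. Hox reads summed to 88.1 ± 11.9 CPM at day 14, 128 ± 31.6 CPM at day 56 and 128 ± 26.3 CPM in sham cells (SD, n = 4 each), of which Hoxa gave 35.6 ± 3.54 CPM at day 14, 57 ± 15 CPM at day 56 and 60.0 ± 13.2 CPM in sham cells. Hoxb8, Hoxb9 and Hoxc13, the genes that appeared in culture, did not reach 1 CPM in any C57BL/6 group. Hoxb8 had at most 12.6 normalised reads in a day 14 library, 4.34 at day 56 and 2.88 in sham cells. Hoxb9 had a single read over the 12 C57BL/6 libraries, in sham replicate 4.

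Of 20 Hox genes tested at day 14 against sham, limma called 0 higher and 1 lower, where 9.57% of all 21100 genes tested were called higher and 6.36% lower. The same 20 were tested in each injury comparison. Among them Hoxa9 and Hoxb1 averaged under 1 normalised read in sham cells, and Hoxa11 had its only reads, 19, in 1 sham library. The counts over the 20 are thus a description. The gene called lower was Hoxb5. It had 497, 522, 528 and 515 normalised reads in day 14 replicates 1 to 4 and 775, 993, 855 and 601 at day 56, against 1467, 850, 687 and 775 in sham cells. Every day 14 library lay below every sham library and every day 56 library. The log2 difference of day 14 against sham was -0.81 ± 0.23 (SE, adjusted p = 0.0299 by limma). Sham replicate 1 was the highest, and without it the difference was -0.57 (adjusted p = 0.0599 by limma), 1 of 7 alternatives in which the call was lost, at adjusted p = 0.0532 to 0.0691. The others left out sham replicate 2 or any 1 of the 4 day 14 libraries, or tested genes of all levels. The Hoxb5 region of lost accessibility described above is the one listed Hoxb5 region at day 14.

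**Figure D5:**
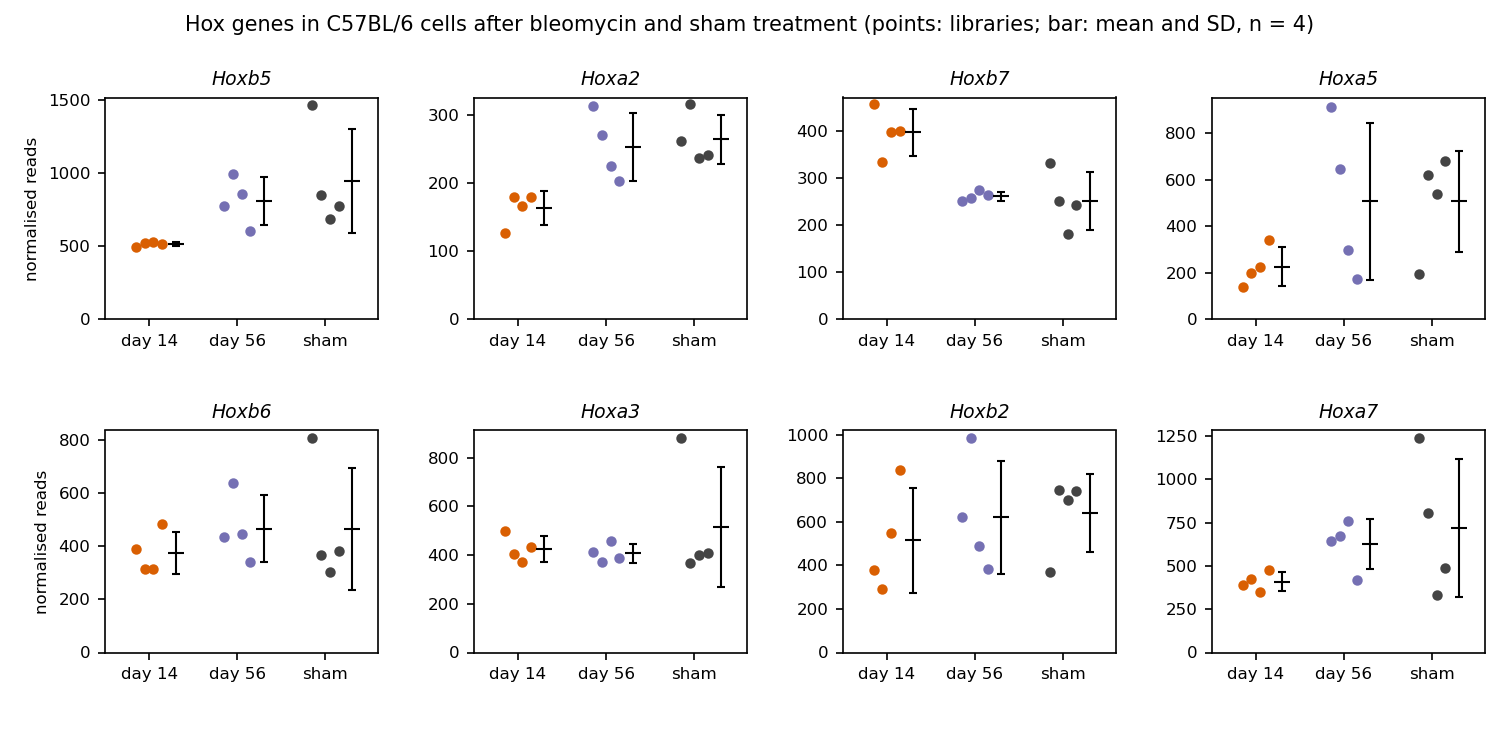
Normalised reads per library of Hoxb5, Hoxa2, Hoxb7, Hoxa5, Hoxb6, Hoxa3, Hoxb2 and Hoxa7 at day 14, at day 56 and in C57BL/6 sham cells (points are libraries, bars the mean ± SD, n = 4 each). The 4 day 14 libraries of Hoxb5 lie between 497 and 528, below all others, and Hoxb7 is the gene whose day 14 libraries, 334 to 457, lie above every sham library.

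Other genes stood apart at day 14 without passing the adjusted threshold. Hoxa2 had 127, 179, 167 and 180 normalised reads at day 14 and 314, 271, 226 and 203 at day 56, against 262, 317, 237 and 242 in sham cells, with a log2 difference of -0.70 ± 0.26 at day 14 (SE, adjusted p = 0.0812 by limma). Hoxb7 went the other way, with 457, 334, 398 and 399 normalised reads at day 14 and 251, 257, 273 and 263 at day 56, against 331, 252, 180 and 243 in sham cells (log2 difference 0.68 ± 0.23, adjusted p = 0.0639 by limma). The day 14 libraries of both genes did not overlap those of sham or day 56. Without sham replicate 1 the difference of Hoxb7 was 0.82 (adjusted p = 0.0272 by limma).

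Hoxa5 had 141, 201, 225 and 339 normalised reads at day 14 and 913, 645, 299 and 172 at day 56, against 195, 619, 538 and 678 in sham cells. Its groups overlapped through sham replicate 1, which is the low one. The log2 difference at day 14 was -1.08 ± 0.51 (adjusted p = 0.179 by limma) with all libraries and -1.49 (adjusted p = 0.0496) without that library. Hoxa6 also lay below sham in every day 14 library, at a log2 difference of -0.77 (adjusted p = 0.384 by limma). Of the other expressed genes, Hoxa7 had -0.65, Hoxa4 -0.55, Hoxb2 -0.37, Hoxb6 -0.22 and Hoxa3 -0.18, all with overlapping groups and adjusted p of 0.234 or more. Hoxb3 and Hoxb4 moved little, with overlapping groups. Hoxb3 averaged 84.8 ± 27.5 normalised reads at day 14 and 87.4 ± 28.0 in sham cells, and Hoxb4 52.0 ± 7.62 and 59.9 ± 16.7 (SD, n = 4 each). Sham replicate 1 lay far from the other sham libraries for Hoxa3, Hoxb6 and Hoxb2. Without it their log2 differences were 0.11 (adjusted p = 0.777 by limma), 0.08 (adjusted p = 0.891) and -0.62 (adjusted p = 0.284), which turns the sign of Hoxa3 and Hoxb6.

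Day 56 against sham showed no Hox gene past the threshold. Limma called 0 of 20 higher and 0 lower, where 0% of all genes were higher and 0.00474% lower, and edgeR and DESeq2 called 0 Hox genes. None had an unadjusted p under 0.05. The 95% intervals of the log2 difference were -0.69 to 0.31 for Hoxb5, -0.42 to 0.59 for Hoxb7, -0.62 to 0.47 for Hoxa2 and -1.23 to 0.96 for Hoxa5, so a change within these bounds could be missed. Day 56 against day 14 also gave 0 higher and 0 lower by limma and by edgeR, with 3 genes at an unadjusted p under 0.05, where 5.71% of all genes were called higher and 8.49% lower. DESeq2 called Hoxa2 higher (adjusted p = 0.0304 by DESeq2) and Hoxb7 lower (adjusted p = 0.0289). By limma the log2 differences were 0.62 ± 0.23 for Hoxb5 (adjusted p = 0.0954), 0.62 for Hoxa2 (0.125) and -0.59 for Hoxb7 (0.111), and the libraries of these 3 genes did not overlap between the days. Any 2 of the 3 injury comparisons share a group of libraries.

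Some cofactors and Polycomb genes passed the test at day 14 against sham and at day 56 against day 14. Of 10 cofactors 3 fell and none rose at day 14 against sham, where 9.57% of all genes were called higher and 6.36% lower. Meis2 had 562.6 ± 78.2 normalised reads at day 14 and 1011 ± 102 in sham cells (SD, n = 4 each, log2 difference -0.85), and Meis1 had 2695 ± 230 and 4314 ± 249 (-0.68). At day 56 against day 14, 3 rose and none fell, where 5.71% of all genes were called higher and 8.49% lower, with Meis2 at 0.97 and Meis1 at 0.63 (log2). Of 23 Polycomb genes 2 rose and 3 fell at day 14, with Phf19 at 3.12, Ezh2 at 1.26, Cbx7 at -2.66 and Ezh1 at -1.27 (log2), and at day 56 against day 14 3 rose and 1 fell, with Cbx7 at 2.30, Ezh1 at 0.89 and Ezh2 at -0.80. Phf19 lost its call at day 14 without sham replicate 1 (2.97, adjusted p = 0.0849 by limma). No Trithorax or demethylase gene and no noncoding gene of the clusters was called in an injury comparison. Of 7 tested upstream regulators 2 rose at day 14. Aldh1a2, which makes retinoic acid, averaged 5821 ± 1270 normalised reads at day 14 and 1905 ± 442 in sham cells (log2 1.61). Cyp26a1, which degrades retinoic acid, had 59 reads at day 14 and 0 in sham cells, 22.6-fold the floor, with the day 14 reads taken as exact. With no read in sham cells, Cyp26a1 is counted as a description.

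Of 40 other positional transcription factors tested, 1 rose and 8 fell at day 14, beside 9.57% of all genes higher and 6.36% lower. Tcf21, a factor of lung lipofibroblasts, had 2735 ± 771 normalised reads at day 14 and 8186 ± 1860 in sham cells (SD, n = 4 each, log2 difference -1.59), and Pax1, Foxf1 and Twist2 had -1.93, -1.49 and -1.13. At day 56 against day 14, 9 rose and 1 fell, beside 5.71% of all genes higher and 8.49% lower, with Alx4 at -4.61, Hand2 at 4.04, Shox2 at 3.51 and Gata4 at 2.08. None of these lists had a gene past the threshold at day 56 against sham. Markers moved with day 14 as well. The leukocyte list summed to 599 to 2250 CPM at day 14 and 195 to 671 at day 56, against 248 to 379 in sham cells, and the proliferation list to 132 to 197 CPM at day 14 against 0.448 to 4.59 in sham cells. The fibroblast list summed to 81700 to 102000 CPM at day 14 against 29500 to 42000 in sham cells, of which Col3a1 alone averaged 48400 CPM at day 14 and 13000 CPM in sham cells. Of its 6 markers 3 rose, all collagens, and 2 fell, Dcn (log2 -1.06) and Pdgfra (-0.69). The smooth muscle list summed to 1720 to 2290 CPM at day 14 and 1300 to 1610 in sham cells, with 3 of 6 markers higher and 1 lower. The endothelial list summed to 94.7 to 155 CPM at day 14 and 185 to 284 in sham cells, with 1 of 10 markers higher and 1 lower. Its most abundant gene, Tek, averaged 35.1 CPM at day 14 and 153 CPM in sham cells. The median log2 difference over the 10 markers was 0.29, so the lower sum does not describe the list as a whole. Epithelial markers summed to 25.4 to 78.5 CPM at day 14 and 126 to 328 in sham cells. Their part in the Hox values was not tested.

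Fewer than 10 Hox regions were listed in each injury comparison. In the authors' deposited table for day 14 against sham 8 regions were named for 5 Hox genes, 3 with higher and 5 with lower accessibility at day 14, where 67.9% of the whole list gained and 32.1% lost it. Besides the Hoxb5 region, at the 3' end of a transcript in the authors' annotation, a pair named for Hoxb3 lost accessibility in that deposited table, at chr11:96332580-96333139 (fold -1.04) and chr11:96342027-96342297 (-1.28). The authors' table also listed losses at chr15:103034493-103034697 in the 5' UTR of Hoxc4 (-1.04) and at chr15:102895700-102896164, 25.2 kb from Hoxc13 (-1.31). Its gains were the distal Hoxc13 region and 2 intergenic regions 35.2 and 39.3 kb from Hoxb1, at chr11:96400761-96401179 (1.10) and chr11:96404934-96405176 (1.23).

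In the authors' deposited table for day 56 against day 14, 4 regions were named for Hox genes, 1 higher and 3 lower at day 56, where 26.3% of the whole list gained and 73.7% lost accessibility. The distal Hoxc13 region had a fold of -2.71 and the Hoxb1 region at chr11:96404934-96405176 a fold of -1.77, so both lay lower at day 56 than at day 14. A region at the start site of Hoxd1 at chr2:74762798-74763102 had -1.16, and a region named for Hoxb3 at chr11:96341822-96342292 had 1.09. The deposited table for day 56 against sham named no region for a Hox gene, and neither did the one for 32 kPa against 0.2 kPa. Of the regions in the day 56 list 60.1% were gained and 39.9% lost, and of those in the 32 kPa against 0.2 kPa list 99.7% were gained and 0.274% lost.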

How the data were processed

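RNA-seq and ATAC-seq were each run on 21 libraries. The submitters' processing notes name the build mm10 and, with no role given, Bowtie2, DESeq2, DiffBind, HISAT2, HOMER, MACS2, Picard, SAMtools, Subread, bedtools and featureCounts. Those notes give no versions or parameters, no strand setting, and nothing on whether peaks were called per sample. The 2 deposited RNA tables hold a normalised signal for every gene in each library, and each column is a read count divided by 1 factor, since 100% of values were whole reads within 0.05 reads. The unit is thus not counts, so limma on log values was the main test and edgeR and DESeq2 on recovered reads were alternatives. Per the file headers, the ATAC lists hold the authors' log2 read concentrations, their log2 fold and a p-value with FDR per region. Every listed region has an FDR of at most 0.05, and folds are at least 1 in size except in the list for 32 kPa against sham. ATAC depth was not analysed here. CD1 entries without a symbol (855, with 2.13 to 4.77% of reads) were left out.

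Tables were rescaled by 1 median-of-ratios factor per library, and genes with a mean of at least 1 were fitted with limma 3.58.1 (limma-trend, R 4.3.3) on log2(value + 1), 1 fit per table, with Benjamini-Hochberg adjustment over all genes at 0.05. Alternatives used edgeR 4.0.16 and DESeq2 1.42.0, other scalings, pseudocounts and filters, a replicate block and each library left out. The fit was tested on simulated data. Both RNA tables were normalised separately, so tests stayed within a table. Full statistics were given to Hox genes called with a log2 difference of at least 1 in size and a mean of at least 1 CPM in either group, then to the highest genes not called, and up to 4 called genes per other list were named by size of difference. Hoxb9 and Hoxc13, which passed the minimum only through culture, are given without a test. Other names were chosen after their values were seen. Members and lists were chosen with earlier results of these data known. Exon lengths, start sites and the microRNA come from RefSeq GRCm38.p6, and the Hoxb8 site from GENCODE on GRCm38. Some items are not reported here.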

Additional observations from a re-analysis of the deposited data

Results flagged for a closer look

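In 3 of 33 groups of 4 C57BL/6 libraries tested, each for 1 Hox gene, 1 library lay far from the others by Dixon's test on the gap to its nearest neighbour. Chance alone flags about 1 in 20 such groups. All 3 cases were sham replicate 1. Hoxa3 had 880.3 normalised reads in sham replicate 1 and 368.3 to 407.9 in the other sham libraries. Hoxb6 had 805.4 in sham replicate 1 and 302.4 to 382.7 in the others. Hoxb2 had 371.0 in sham replicate 1 and 699.5 to 747.1 in the others.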

How the results depend on the processing

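For 36 pairs of a Hox gene and a comparison, 586 values were computed under alternative settings. Of these, 534 kept their direction and side of the threshold, 34 were no longer past it, 16 were newly past it and 2 turned sign. Those 2 are Hoxc5 on 0.2 kPa, at -0.38 by edgeR and -0.36 by DESeq2, against 0.67 by limma, and it was not called by any of the 3. Leaving out 1 library gave 7 to 10 genes higher and 2 lower on 0.2 kPa and 7 to 12 higher and 2 to 3 lower on 32 kPa, against sham. At day 14 it gave 0 to 1 higher and 0 to 1 lower, and 0 in every other comparison. At day 14 against sham 1 gene was higher with no filter, with a mean of at least 10, and by DESeq2, which also called 2 lower. At day 56 against day 14 DESeq2 called 1 higher and 1 lower, and 1 was lower with the deposited values. The cause was not tested. Over all genes at day 56 against day 14 the calls were 1205 higher and 1792 lower, and with the deposited scaling 777 and 3035, while with CPM they were 1588 and 1423. The median log2 difference of all genes was -0.08, -0.27 and 0.03 under these 3 scalings, and on 0.2 kPa against sham -0.22, -0.30 and -0.02. No called Hox gene turned sign under them.

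With the replicate number as a block the counts were 9 higher and 2 lower on 0.2 kPa, 10 and 2 on 32 kPa, and 0 and 1 at day 14, all against sham, and 0 elsewhere. Same-numbered libraries correlated at -0.25 to 0.14, and not every library matched its own number best, so the numbers are not taken as pairs. With 5 CPM as the minimum 8 genes were expressed in CD1 sham cells. With a fold of at least 2 in size, lost regions numbered 22 on 0.2 kPa, 20 on 32 kPa, 0 at day 14 and 1 at day 56 against day 14, and gained ones 1 at day 14 and 0 at day 56 against day 14. Within 5 kb of a cluster, a window chosen after seeing the data, 0 regions were gained on 32 kPa. With regions named for noncoding genes added, 6 were gained at day 14 and 5 lost at day 56 against day 14. The shallowest group, day 56, allows up to 0.0268 CPM for a gene with no read.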

Other observations

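Noncoding genes lie among the Hox genes, and some of those tested changed in culture. 5730596B20Rik, a long noncoding gene of the Hoxa cluster, had 40.2, 53.2 and 34.6 normalised reads on 0.2 kPa and 47.1, 78.9 and 51.5 on 32 kPa, against 281, 73.9 and 273 in CD1 sham cells, where the sham library that stood apart is the low one. Its log2 difference was -2.06 on 0.2 kPa (adjusted p = 0.00282 by limma) and -1.61 on 32 kPa (adjusted p = 0.011), and the groups overlapped on 32 kPa alone. Without that library it was -2.70 (adjusted p = 6.98e-05 by limma) and -2.25 (adjusted p = 0.000205). Hoxaas3, an antisense gene of the same cluster, had 13.7, 5.71 and 4.62 normalised reads on 0.2 kPa and 0, 7.89 and 2.75 on 32 kPa, against 34.3, 11.5 and 28.2 in sham cells, and fell on 32 kPa (log2 -2.87, adjusted p = 0.00651 by limma). Exons of Hoxaas3, and of 5730596B20Rik when all RefSeq models count, overlap exons of Hoxa3. Whether the counting used the strand is not stated, so the values of both noncoding genes are uncertain. Mira had 412, 363 and 207 normalised reads on 32 kPa, against 164, 225 and 182 in sham cells (log2 0.74, adjusted p = 0.0265 by limma), with overlapping groups.

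In the authors' deposited tables, regions named for or nearest to Halr1, a noncoding gene beside the Hoxa cluster, were listed in culture and after injury. The culture regions and the injury regions lay at different places and did not overlap. On 0.2 kPa 3 regions nearest to Halr1 lost accessibility against sham, with folds of -1.99, -1.43 and -2.09, where 87.9% of the whole list lost it. At day 14 the authors' deposited table listed 3 gains and 1 loss against sham, where 67.9% of the whole list gained accessibility and 32.1% lost it. The gains were chr6:52079099-52079207 (log2 fold 4.84, FDR 3.71e-10), chr6:52106436-52106573 in an intron (1.66) and chr6:52102191-52102542 at the start site (1.00). At day 56 against day 14 the first and second of these had folds of -1.66 and -2.14 in the authors' deposited table.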
